A study of Chlamydomonas reinhardtii with 9 samples.

Results

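Chromosome 15 of the green alga Chlamydomonas reinhardtii held 4255 of the 117666 ChIP-seq peaks called for HA-tagged PAF1 and HA-tagged SKIP. Its members are all peaks placed on that chromosome in the 6 deposited peak lists, and no other condition was applied. PAF1-HA replicates 1, 2 and 3 had 613, 591 and 602 peaks there. SKIP-HA replicates 1, 2 and 3 had 741, 804 and 904. The chromosome and its dense block, from 1.6 to 2 Mb, were chosen by the density and spacing of these same peaks. Peak density, the peak-free stretches and the density of the block are therefore described here without a test. Tests compare only the shares of peaks that the proteins had on the chromosome, in the block and in windows.

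PAF1 names a protein complex that accompanies RNA polymerase II along transcribed genes and is needed for histone marks laid down during elongation. SKIP carries an SNW domain and takes part in both splicing and transcription in plants, yeast and animals. The series title joins both proteins to CDKB, which belongs to a class of cell-cycle kinases found in plants and algae.

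Chromatin of cells in the CC5325 background was cross-linked with formaldehyde, sonicated and precipitated with an antibody against the HA tag. The groups are 3 PAF1-HA and 3 SKIP-HA libraries. Their labels name the genotype only as paf1 and skip, so whether these lines also carry a mutation of the endogenous gene is not known here, nor is the promoter that drives each tagged protein. Replicate 3 of each group describes the cells in other label fields than replicates 1 and 2. Wild-type libraries belong to the series but their peaks were not analysed here, so no value below has an untagged background beside it. The labels do not tie replicates to separate cultures, and p-values therefore measure the spread between libraries, which may be technical.

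The whole lists held 16329 to 17645 peaks for PAF1-HA and 19709 to 24680 for SKIP-HA. A peak is an interval, 400 bp wide for every peak on chromosome 15, with no score, strand or read count. Read depth is unknown, and an empty stretch is one in which no peak was called, not one shown to lack protein. Positions are 1-based in the unnamed build of the lists. The version 5.5 gene table at hand ends on chromosome 15 at 1921949, with 228 genes, whereas peaks run to 5824251. No gene, promoter or sequence is therefore given for any position.

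Chromosome 15 had the lowest overall density of peaks of the 17 chromosomes, but its occupied parts were not sparse. Its peaks spanned 127180 to 5824251, and over that span PAF1-HA libraries had 108, 104 and 106 peaks per Mb and SKIP-HA libraries 130, 141 and 159. The mean of the 6 libraries was 124 peaks per Mb, against 160 to 205 on the other 16 chromosomes. With stretches of at least 50 kb without any peak taken out of the length, the mean was 191 peaks per Mb, which ranked 5 of 17 and lay within the 168 to 211 of the others. PAF1-HA then had 162 ± 2.96 and SKIP-HA 219 ± 22.1 peaks per Mb (SD, n = 3). The chromosome also started late. Its first peak began at 127180, while the first peak of every other chromosome began between positions 172 and 38465.

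**Figure D1:**
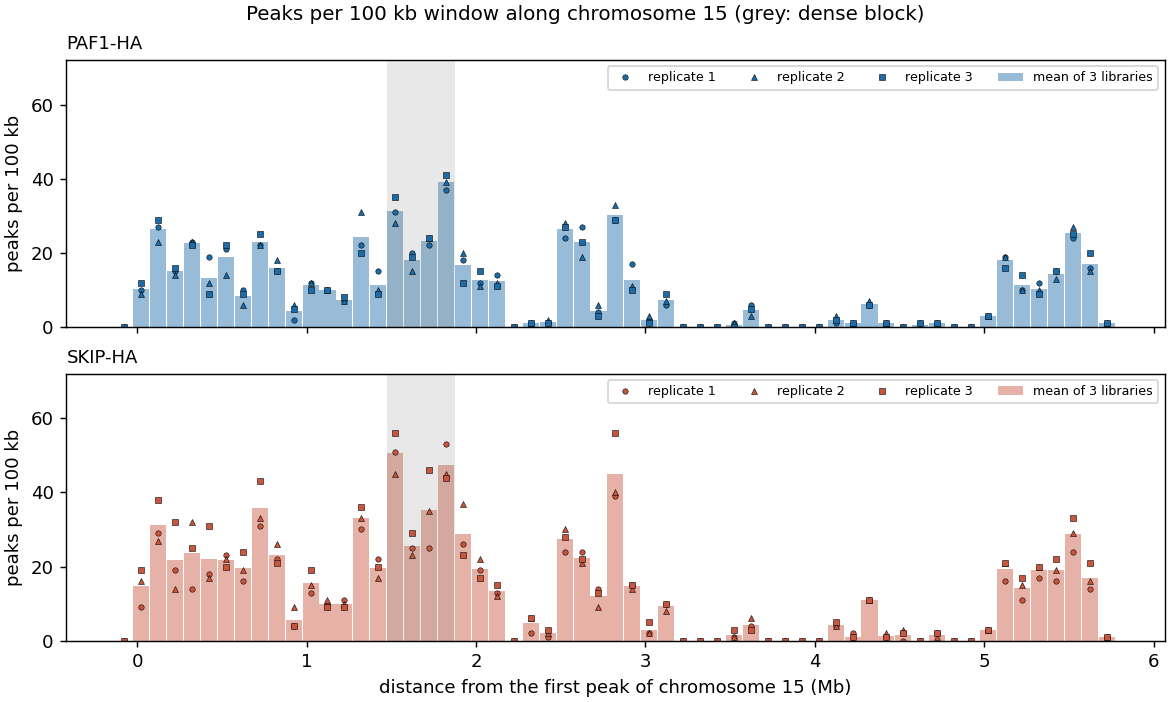
Peaks per 100 kb window along chromosome 15 for the PAF1-HA (top) and SKIP-HA (bottom) libraries, with distance from the first peak in Mb on the horizontal axis. Bars are means of 3 libraries, symbols are single libraries and grey marks the dense block; the windows of the block reach 41 PAF1-HA and 56 SKIP-HA peaks, and long runs of windows to its right are empty.

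Of the 59 windows of 100 kb on chromosome 15, 11 had no peak in any library, against 6 of 1070 windows on the other chromosomes. A mean below 5 peaks per library was found in 24 windows, or 40.7%, against 3.46% elsewhere. The median window had a mean of 10 peaks, against 17.5 elsewhere. The chromosome was uneven rather than thin throughout, since 18 of its windows lay above the median of the other 16 chromosomes.

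The long peak-free stretches set chromosome 15 apart by number and by length. It had 12 stretches of at least 50 kb without a peak in any of the 6 lists. They added up to 34.7% of its span, against 0.999% to 6.33% of the span of each other chromosome, which had 1 to 6 such stretches each. Chromosome 15 makes up 5.10% of the length spanned by peaks on the 17 chromosomes and held 24.5% of all 49 stretches and 35.1% of their summed length. The shortest stretch counted was 54693 bp and the longest one left out was 45972 bp.

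The longest stretch was 461351 bp, from 3768914 to 4230264. The second was 384380 bp, from 3265709 to 3650088, and the third was 370064 bp, from 4816773 to 5186836. These are the 3 stretches of at least 300 kb in the nuclear lists; the longest elsewhere measured 220674 bp, on chromosome 1. The fourth, from 2291599 to 2435272, was 143674 bp long. The next 6 were between 69192 and 97778 bp, starting at 1047921, 4713828, 4284777, 2490076, 3118979 and 3048878 in order of falling length. The remaining stretches were 62849 bp from 4598929 and 54693 bp from 4541569. All but 1 of the 12 lay between 2291599 and 5186836, where they filled 64.9% of the length. The exception, from 1047921 to 1145698, interrupted the well-filled left part of the chromosome.

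**Figure D2:**
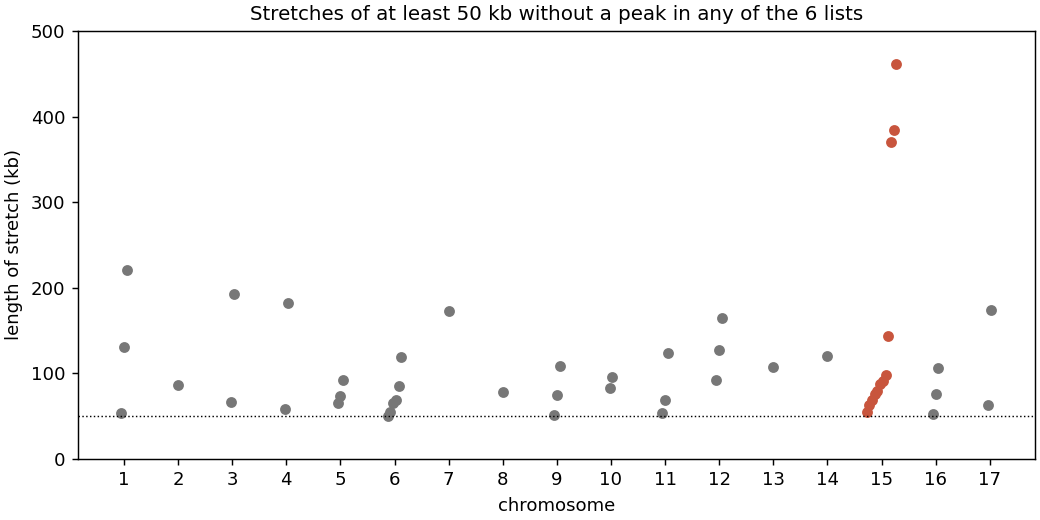
Length in kb of every stretch of at least 50 kb (dotted line) without a peak in any of the 6 lists, by chromosome, with 1 point for each stretch. Chromosome 15 (red) has 12 stretches and the 3 longest, and the other 16 chromosomes (grey) have 1 to 6 each.

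Many regions that border the stretches were seen in a single library only, which is given as a count with no test. Peaks of the 6 lists that overlapped were merged, which gave 1232 regions on chromosome 15. Of the 24 regions that flank a stretch, 12 had a peak in 1 library only, and every such library was a SKIP-HA library. A peak in every library was found in 3 of the 24, or 12.5%, close to the share on the whole chromosome. Of all regions on the chromosome, 34.1% were of a single library and 13.6% of every library. SKIP-HA supplied 328 of those 420 single-library regions, or 78.1%. On the other chromosomes 25 of 73 flanking regions, or 34.2%, were of a single library, against 35.5% of all regions there. Of these 25, 22 were of SKIP-HA, which supplied 70.0% of all single-library regions of those chromosomes. There 13 flanking regions, or 17.8%, were of every library, against 6.55% to 9.31% of all regions of each of those chromosomes. The SKIP-HA lists are longer, and how far that sets the flanks was not tested.

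The 4 stretches of at least 100 kb part the chromosome into 5 segments. The first, from 127180 to 2291598, held most peaks, with 384, 366 and 378 for PAF1-HA and 483, 520 and 580 for SKIP-HA. The second, from 2435273 to 3265708, had 111, 110 and 104 against 131, 132 and 158. The third, from 3650089 to 3768913, lies between the 2 longest stretches and had few peaks, 7, 4 and 5 against 5, 7 and 6. It is the segment where SKIP-HA libraries had the least surplus of peaks, with 1.13 SKIP-HA peaks for each PAF1-HA peak. The fourth, from 4230265 to 4816772, had 11, 13 and 12 PAF1-HA peaks against 20, 21 and 22 SKIP-HA peaks, the highest ratio of the 5, at 1.75. The fifth, from 5186837 to the end, had 100, 98 and 103 against 102, 124 and 138, a ratio of 1.21. These ratios stand beside 1.36 for the whole chromosome and 1.31 for the whole lists.

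Between the first and the last of the stretches in the middle of the chromosome, from 2291599 to 5186836, PAF1-HA libraries had 129, 127 and 121 peaks and SKIP-HA libraries 156, 160 and 186. Most of them lay in a well-filled piece of 479 kb from 2569676 to 3048877, with 102, 99 and 93 PAF1-HA peaks and 117, 116 and 137 SKIP-HA peaks. The window from 2900001 to 3000000 in that piece had 29, 33 and 29 against 39, 40 and 56, and ranked 9 of 1129 windows by its mean. The other 9 pieces between stretches spanned 0.909 to 169 kb and 536 kb in all. They had 27, 28 and 28 PAF1-HA peaks and 39, 44 and 49 SKIP-HA peaks, in 72 regions. Of these regions, 31 were of a single library, 28 of them of SKIP-HA, and 12 had a peak in every library. Single-library regions thus made up 43.1%, against 34.1% on the whole chromosome, and 90.3% of them were of SKIP-HA, against 78.1%. Regions of every library made up 16.7%, against 13.6%. The 9 pieces were set aside after their values had been seen, and no test was applied to them.

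The smallest of these pieces hold only a few peaks, and 3 of them span at most 20 kb. The piece from 3118070 to 3118978 had no PAF1-HA peak. Its region from 3118070 to 3118469 came from SKIP-HA replicate 3 alone, and its region from 3118560 to 3118978 from SKIP-HA replicates 1 and 3. It parts stretches of 69192 and 76252 bp, which would otherwise run together.

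The piece from 4596262 to 4598928 had exactly 1 peak in each library, but not at a single place. All 3 PAF1-HA libraries and SKIP-HA replicate 2 had theirs at 4597377 to 4597803, with centres within 27 bp. The peak of SKIP-HA replicate 3 lay to its left, at 4596262 to 4596661, and that of SKIP-HA replicate 1 to its right, at 4598529 to 4598928.

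The piece from 4804296 to 4816772 ends at the border of the 370064 bp stretch. At 4816338 to 4816772 every library had 1 peak, with centres within 35 bp. At its other end, 4804296 to 4804901, only SKIP-HA replicates 1 and 3 had a peak. The far side of the same long stretch is bordered by regions of every library too. The regions from 5186837 to 5187270, 5187579 to 5188006 and 5189929 to 5190338 each had 1 peak per library, with centres within 34, 28 and 10 bp. They fit in 3502 bp and are followed by 24514 bp without a peak. The stretch thus lies between regions found in 6 of 6 libraries on both sides.

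**Figure D3:**
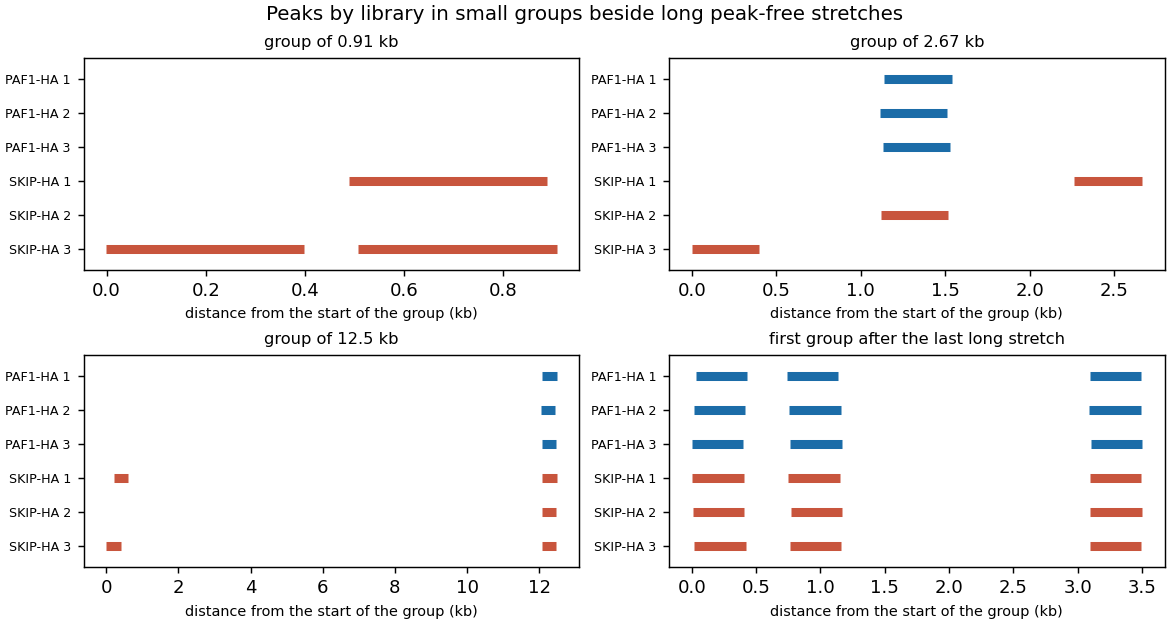
Peaks by library in the 3 groups of at most 20 kb between peak-free stretches and in the first group after the last long stretch, with distance from the start of the group in kb and PAF1-HA in blue and SKIP-HA in red. The 0.909 kb group has SKIP-HA peaks only, and the last panel has 3 regions with a peak in every library.

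Other pieces held regions of every library as well. In the piece from 2435273 to 2490075, PAF1-HA libraries had 1 peak each and SKIP-HA libraries 2, 6 and 6. All 3 PAF1-HA peaks fell in the region from 2443108 to 2443521, where every SKIP-HA library also had a peak and the centres lay within 14 bp. The same piece had a region of all 3 SKIP-HA libraries without PAF1-HA, from 2462931 to 2463448. In the third segment, between the 2 longest stretches, the regions from 3744081 to 3744713 and from 3767565 to 3768236 were found in all 6 libraries, and the latter is the last of that kind before the longest stretch. On the other side of that stretch, the nearest region of every library was at 4235644 to 4236096.

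The block from 1.6 to 2 Mb was dense for both proteins. PAF1-HA libraries had 110, 106 and 119 peaks in it, or 279 ± 16.6 per Mb, and SKIP-HA libraries 154, 148 and 175, or 398 ± 35.4 per Mb (SD, n = 3). It takes up 7.02% of the span and held 17.9%, 17.9% and 19.8% of the chromosome's peaks in PAF1-HA libraries and 20.8%, 18.4% and 19.4% in SKIP-HA libraries. The means of 18.5% ± 1.06 and 19.5% ± 1.20 differed by 0.967 percentage points, and the groups overlapped (two-sided exact permutation p = 0.3, n = 3 per group, where 0.1 is the smallest possible). The block had a mean of 135 peaks, which ranked 2 among 1078 placements of 400 kb along the 17 chromosomes, whose median was 70.

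Within the block, density was highest at both ends. Its first window of 100 kb had 31, 28 and 35 PAF1-HA peaks and 51, 45 and 56 SKIP-HA peaks and ranked 3 of 1129 windows. The window from 1700001 to 1800000 had 20, 15 and 19 against 25, 23 and 29. In it a gap of 25238 bp from 1701168 to 1726405 had no peak. The window from 1800001 to 1900000 had 22, 24 and 24 against 25, 35 and 46. The last, from 1900001 to 2000000, had 37, 39 and 41 against 53, 45 and 44 and was the densest window of the 17 chromosomes. On both sides of the block density was lower than in its end windows. The window to the left of the block had 15, 10 and 9 PAF1-HA and 22, 17 and 20 SKIP-HA peaks. The window to the right had 18, 20 and 12 and 26, 37 and 23. Its mean of 22.7 peaks was not below the 21.8 of the block's window from 1700001.

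The block also held the longest unbroken run of regions on the 17 chromosomes. Regions of at least 2 libraries that lay at most 1 kb apart formed a run of 30694 bp from 1788094 to 1818787, with 28 regions. The longest run elsewhere was 23528 bp, on chromosome 3. PAF1-HA libraries had 18, 19 and 14 peaks in the run and SKIP-HA libraries 19, 19 and 32. None of its 28 regions had a peak in every library, although 7 had peaks in 5. The run on chromosome 3 had 5 such regions among 19, and of the 110 runs over 10 kb, 26 had none. The second run of the block, from 1916245 to 1938282, measured 22038 bp and had 5 regions of every library among 19. On chromosome 15 as a whole 7.48% of its 401 runs exceeded 5 kb, against 6.42% elsewhere. Runs over 10 kb numbered 6 of 401, against 104 of 12496 elsewhere. Chromosome 15 had 2 runs over 20 kb, both in the block, and the other chromosomes had 5.

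A further question was whether the proteins placed different shares of their peaks along chromosome 15. The chromosome as a whole took 3.77%, 3.49% and 3.43% of the PAF1-HA peaks and 3.77%, 3.62% and 3.67% of the SKIP-HA peaks. The means of 3.56% ± 0.183 and 3.69% ± 0.0797 differed by 0.125 percentage points and the groups overlapped (SD, n = 3; two-sided exact permutation p = 0.3, adjusted p = 0.392 over 17 chromosomes). On the 17 chromosomes the groups did not overlap on 29.4% in each direction, and chromosome 15 is not among them.

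In 100 kb windows, 0 of the 35 chromosome 15 windows with enough peaks differed between the proteins by limma with Benjamini-Hochberg adjustment over 1068 windows. Over all chromosomes 0.562% were called, 0.468% of windows as higher in SKIP-HA and 0.0936% as higher in PAF1-HA. At an unadjusted p under 0.05 there were 3 of the 35 windows on chromosome 15, a smaller share than the 152 of 1068, or 14.2%, of all. The median log2 ratio of shares, SKIP-HA over PAF1-HA, was 0.05 on chromosome 15 and 0.01 over all windows. Shares were apart, without overlap of the groups, in 6 windows higher in SKIP-HA, or 17.1%, and in 4 higher in PAF1-HA, or 11.4%. Over all windows 9.93% did so in each direction.

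The windows with the lowest p towards SKIP-HA lay at 2800001 and 700001. The first had 4, 6 and 3 PAF1-HA peaks and 14, 9 and 13 SKIP-HA peaks, with a log2 ratio of shares of 1.01 and an SE of 0.253 (limma adjusted p = 0.0979). It lies beside the densest window of the middle of the chromosome, at 2900001. The second had 10, 6 and 9 against 16, 19 and 24, with a log2 ratio of 0.82 and an SE of 0.217 (limma adjusted p = 0.118). In both, peak numbers of the groups did not overlap, and neither passed the threshold. With the replicate number as a term in the fit both passed (limma adjusted p = 0.0141 and 0.0464). Window counts of same-numbered libraries did not deviate together, and whether the numbers mark pairs is not known. The third window towards SKIP-HA, at 5400001, had 12, 10 and 9 against 17, 20 and 20 peaks, with a log2 ratio of 0.47 and an SE of 0.200 (limma adjusted p = 0.279).

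Towards PAF1-HA the differences were smaller. The window at 5700001 had 16, 15 and 20 PAF1-HA and 14, 16 and 21 SKIP-HA peaks, for a log2 ratio of -0.39 and an SE of 0.196 (limma adjusted p = 0.386). The window at 2700001 had 27, 19 and 23 against 24, 21 and 22, for a log2 ratio of -0.41 and an SE of 0.212 (limma adjusted p = 0.402). The window at 1200001 had 10, 10 and 10 against 10, 11 and 9, for a log2 ratio of -0.39 and an SE of 0.200 (limma adjusted p = 0.402). In these 3 windows the peak numbers of the proteins were close, while the SKIP-HA lists are longer overall. Numbers were equal in all libraries at 5100001, at the end of the 370064 bp stretch, where every library had 3 peaks.

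Regions of all 6 libraries, and regions with peaks of both proteins, made up a larger share on chromosome 15 than on any other chromosome. All 6 libraries had a peak in 167 of 1232 regions, or 13.6%, against 6.55% to 9.31% on the other 16 chromosomes. With an overlap of at least 200 bp required it was 6.66%, again the highest of 17. These shares come from the peaks that chose the chromosome and carry no test. Regions with peaks of both proteins made up 53.9%, against 47.7% to 53.0%. Regions of PAF1-HA alone numbered 122, or 9.90%, the lowest of 17, while the 446 of SKIP-HA alone, or 36.2%, ranked sixth. The share of single-library regions, 34.1%, lay within the 32.4% to 37.9% of the others.

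**Figure D4:**
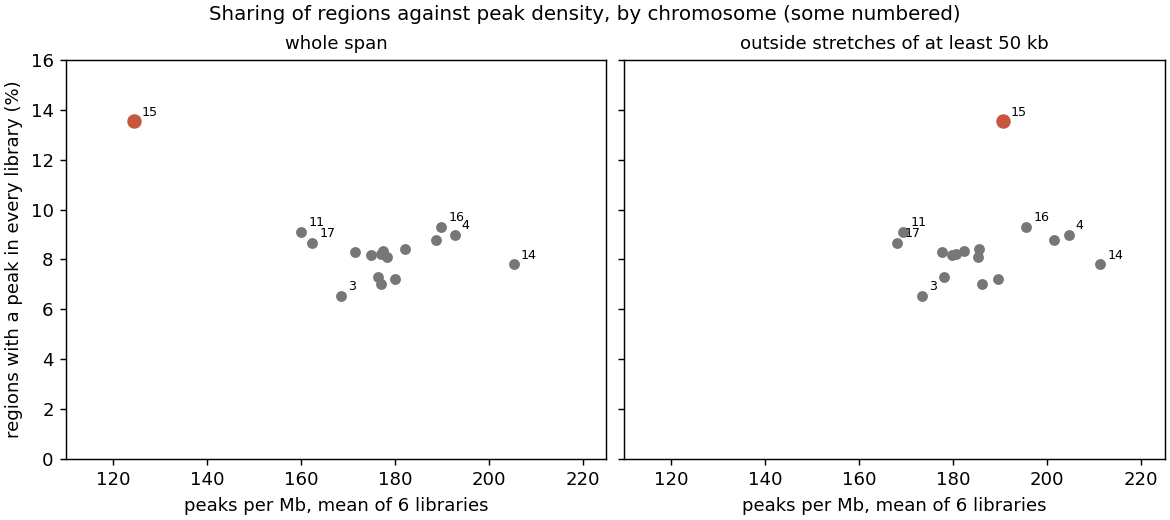
Percent of merged regions with a peak in every library against the mean number of peaks per Mb, 1 point per chromosome, over the whole span (left) and outside stretches of at least 50 kb (right). Chromosome 15 (red) lies at 13.6% in both panels, at 124 and 191 peaks per Mb, and the other chromosomes lie at 6.55% to 9.31%.

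The order by each library's own peaks was less uniform. In PAF1-HA libraries 87.3%, 90.5% and 87.4% of the chromosome's peaks overlapped a SKIP-HA peak, a mean of 88.4% ± 1.85 against means of 80.6% to 85.5% on other chromosomes. In SKIP-HA libraries 77.1%, 70.0% and 66.0% overlapped a PAF1-HA peak, a mean of 71.0% ± 5.58 against 65.0% to 69.9% (SD, n = 3). Chromosome 15 ranked first of 17 in every PAF1-HA library and in SKIP-HA replicate 1, but 2 in SKIP-HA replicate 2 and 7 in SKIP-HA replicate 3. The SKIP-HA spread between libraries is wider than the difference from the highest other chromosome. The same libraries were counted on every chromosome, so this spread does not measure a difference between chromosomes. Peaks that overlapped another library of the same protein made up 76.2% ± 1.66 in PAF1-HA, where the mean ranked first, and 74.4% ± 4.44 in SKIP-HA, where it ranked 2. Of 499 PAF1-HA consensus regions, those with peaks in at least 2 of 3 libraries, 366 or 73.3% met a SKIP-HA consensus region, against 61.9% to 71.5% elsewhere. Of 629 SKIP-HA consensus regions, 368 or 58.5% met a PAF1-HA one, against 48.8% to 55.6%. The median gap between peaks was shorter than on any other chromosome in PAF1-HA, but not in SKIP-HA. Between neighbouring peak centres it was 1949 ± 25.6 bp in PAF1-HA libraries, against 2008 to 3045 bp elsewhere. In SKIP-HA libraries it was 1740 ± 174 bp, against 1723 to 2431 bp (SD, n = 3). Peaks with another centre of their library within 1 kb made up 51.5% in PAF1-HA, against 47.7% to 54.2% elsewhere. In SKIP-HA they made up 55.3%, against 50.8% to 56.6%. How far spacing sets the overlaps was not tested.

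Along the chromosome, measures of sharing ranked its parts differently, and regions of every library did not simply follow peak density. Regions with a peak in every library made up 9.01% in the block (20 of 222), where peaks were densest, and 12.3% in the rest of the first segment. In the windows of the block, from left to right, they made up 7.35%, 7.14%, 7.55% and 13.6%. The last of these values is that of the densest window, from 1900001. They made up 19.2% in the middle from 2291599 to 5186836 (49 of 255) and 14.9% in the last segment (29 of 195). Without the block the chromosome had 14.6%. Regions with peaks of both proteins, in contrast, were most frequent in the block, at 58.6%, against 52.7% in the rest of the first segment, 51.8% in the middle and 54.9% in the last segment. Single-library regions were least frequent there, at 29.7%, against 35.7%, 35.3% and 32.8%. The PAF1-HA libraries resembled each other least in the block. There 67.4% ± 3.30 of PAF1-HA peaks overlapped a peak of another PAF1-HA library, against 73.6% ± 2.17 in the rest of the first segment, 83.8% ± 1.20 in the middle and 83.4% ± 3.34 in the last segment (SD, n = 3). In SKIP-HA the block, at 74.8% ± 2.98, lay between the 73.2% ± 4.70 of the rest of the first segment and the 77.5% ± 6.20 of the middle, within the spread of the libraries.

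**Figure D5:**
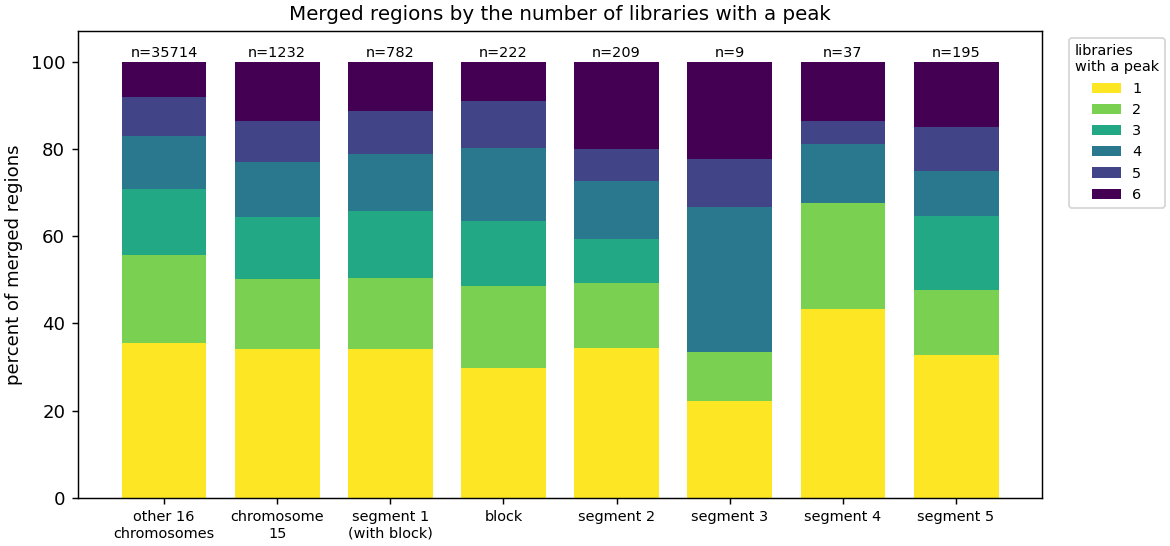
Percent of merged regions by the number of libraries with a peak, 1 to 6 (colours), for the other 16 chromosomes, chromosome 15, its 5 segments and the block, with the number of regions above each bar. The part of regions found in all 6 libraries is 9.01% in the block and 20.1% in the second segment, which starts after the first stretch of at least 100 kb.

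In some of the regions of every library, the peaks lay close to a single position. Of the 167 regions, 92, or 55.1%, had exactly 1 peak per library, against 44.2% of such regions on the other chromosomes together. That ranked 2 of 17, as the others ranged from 37.8% to 59.1%. The median distance between the outermost centres of these 92 was 51 bp, against 81.5 bp elsewhere, the smallest of 17. In 44 of the 92, or 47.8%, this distance was at most 50 bp, against 34.8% elsewhere. For the regions with more than 1 peak in a library it was not computed. The median distance was thus taken over a part of the 167. That median was 38 bp in the middle of the chromosome, over 33 regions, and 93 bp in the first segment outside the block, over 36.

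The region with the closest centres was the last one of the chromosome, from 5823844 to 5824251, where the 6 centres lay within 8 bp. No peak of any list reaches beyond it. Next came the region from 5189929 to 5190338, already named beside the 370064 bp stretch, within 10 bp. A region inside the block, from 1849200 to 1849610, had centres within 11 bp. In the regions from 2611264 to 2611675 and from 1292068 to 1292480 they lay within 12 and 13 bp.

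Regions of a single protein in all of its libraries were few. PAF1-HA peaks in 3 of 3 libraries with SKIP-HA peaks in 0 of 3 occurred in 7 regions, or 0.568%, which ranked 16 of 17. The closest centres were at 1363108 to 1363512 (within 5 bp), 5247200 to 5247614 (15 bp) and 2929880 to 2930297 (18 bp). The regions from 5552407 to 5552846 and from 5684461 to 5684982 had centres within 40 and 122 bp. Of the 7 regions, 4 lay in the last segment and 0 in the block, which held 195 and 222 of all 1232 regions.

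The opposite pattern, SKIP-HA peaks in 3 of 3 libraries and PAF1-HA peaks in 0 of 3, occurred in 29 regions, or 2.35%, which ranked 11 of 17. The closest centres were at 471992 to 472411, within 20 bp. The regions from 5479645 to 5480100, 5568319 to 5568779, 1680432 to 1680895 and 5527678 to 5528143 had centres within 56 to 66 bp. Of the 29 regions 21 lay in the first segment, 5 of them in the block, while 5 lay in the second segment and 3 in the last. The first segment held 782 of all 1232 regions, 222 of them in the block, the second held 209 and the last 195. In these counts a difference between the proteins cannot be told apart from the longer SKIP-HA lists.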

How the data were processed

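The 6 ChIP-seq peak lists, 3 per tagged protein, were taken as deposited by the authors, 1 list per library, each line a chromosome, a start and an end with no score, count or p-value. Bowtie2 and HOMER are named for all 6 libraries and MACS3 for 4, without versions, per the submitters' processing notes. How peaks were thresholded, which control was used and which build underlies the positions is not given in the sources used here. Wild-type peaks were not analysed here. Members, lists and tests were chosen with earlier results of these data known.

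Overlaps of at least 1 bp were merged over the 6 lists with pandas 2.3.3 and numpy 2.4.6 under Python 3.11.15, with scipy 1.17.1 for permutations and matplotlib 3.10.9 for plots. Stretches are gaps of at least 50 kb between merged regions. Two-sided exact permutation tests (smallest p 0.1) compared the libraries' shares. Log2 shares of each library's peaks per 100 kb window, with 0.5 added to each count and a mean of at least 5 peaks required, went into limma 3.58.1 (R 4.3.3), with p-values adjusted by Benjamini-Hochberg with a threshold of 0.05. The window test was checked on simulated data.

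Named were the 10 longest stretches, groups of at most 20 kb between stretches, the windows of the block, the 5 regions with the closest centres of each kind and the 3 windows with the lowest p in each direction; other named regions were chosen after their values were seen. Alternatives were leaving out each library, replicates 1 and 2 only, a replicate block, other windows, filters, offsets, overlaps, stretch minimums and block edges, and, chosen after seeing the data, a trended variance prior and the chromosome without the block.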

Additional observations from a re-analysis of the deposited data

How the results depend on the processing

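Chromosome 15 kept 12 stretches when any 1 library was left out; with a minimum of 20 kb there were 38 and with 100 kb there were 4. Regions of every library made up 14.5% to 15.6% with 1 library left out, 17.3% with replicates 1 and 2 only, 6.66% with an overlap of at least 200 bp and 17.3% with centres at most 500 bp apart joined. PAF1-HA consensus regions met by SKIP-HA ranged from 51.5% to 78.6% with 1 library left out, and were 58.7% with replicates 1 and 2 and 59.0% with 200 bp. The SKIP-HA values were 40.5% to 66.5%, 49.4% and 45.9%. The rule of at least 2 libraries was kept, so 2 of 3 became 2 of 2 for a protein that lost a library. PAF1-HA consensus regions gave 51.5% to 56.7% without a SKIP-HA library and 77.8% to 78.6% without a PAF1-HA library. SKIP-HA consensus regions gave 62.9% to 66.5% and 40.5% to 41.0% in the same order. Chromosome 15 ranked first of 17 in all of these sharing settings except PAF1-HA consensus regions without PAF1-HA replicate 2, at 77.8%, where it ranked 2. The number of windows called on chromosome 15 was 0 with any 1 library left out, 1 with a mean of at least 2 peaks (at 2400001, higher in SKIP-HA, limma adjusted p = 0.0435) and 2 with the replicate block, both higher in SKIP-HA. Deviations of window shares from the group means correlated at -0.00378, -0.0321 and 0.00197 between same-numbered libraries. Window counts thus showed no pairing by replicate number, but whether the libraries were paired is not known. The replicate block gave 0.125 for the difference in the chromosome's share and 0.967 for that of the dense block. Over all chromosomes 6 windows were called, and 15 with the replicate block. The number was 0 to 12 with 1 library left out and 10 with replicates 1 and 2. In 50 kb windows it was 0, in 200 kb windows 12 and with a trended prior 2. The difference in the chromosome's share was 0.0567 to 0.229 and that of the dense block 0.334 to 1.58 with 1 library left out, and 1.81 with its edges moved out by 50 kb (exact permutation p = 0.1, the smallest possible). The causes were not tested. Without read depth, uncalled and unbound positions cannot be told apart.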
